A study of Homo sapiens with 15 samples.

Results

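The tubulin genes were followed across the doses of ZJ-101, a synthetic relative of superstolide A, a compound first isolated from a marine sponge. They were the 10 genes TUBA1A, TUBA1B, TUBA1C, TUBA4A, TUBB, TUBB2A, TUBB3, TUBB4B, TUBB6 and TUBG1, taken by symbol from a table of 59608 genes, and all 10 were found. MDA-MB-231 cells, an established triple-negative breast cancer line, were grown in 2D culture and each dish was treated for 6 h with vehicle (0.1% DMSO) or with ZJ-101 at 0.5, 5, 50 or 500 nM. Each of the 5 groups held 3 libraries, 15 in all, and all of them came from this 1 cell line, so that p-values measure the spread between these dishes. Values are normalized counts, which are read counts per gene divided by a size factor of the library. A mean of at least 10 over the 15 libraries was required for testing, which 13561 genes and 9 of the 10 tubulin genes passed. TUBB did not pass.

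Alpha- and beta-tubulin form the heterodimer that polymerizes into microtubules, and gamma-tubulin templates new microtubules at the centrosome. Cells hold several genes for each kind, and they adjust the stability of alpha- and beta-tubulin mRNA to the pool of unpolymerized dimer. When that pool rises, TTC5 recognizes the first residues of a nascent tubulin chain on the ribosome and, through SCAPER, brings the CCR4-NOT deadenylase to the mRNA, so that the tubulin mRNAs are degraded together.

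The start of each coding sequence is shown because it encodes the residues that this machinery reads. The first 8 codons are given 5′ to 3′ from the GENCODE 44 canonical transcript on hg38, with codons 1 to 4 in capitals.
TUBA1A: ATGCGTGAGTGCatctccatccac
TUBA1B: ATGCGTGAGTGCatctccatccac
TUBA1C: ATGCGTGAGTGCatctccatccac
TUBA4A: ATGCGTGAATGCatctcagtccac
TUBB: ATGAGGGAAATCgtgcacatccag
TUBB2A: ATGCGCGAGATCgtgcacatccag
TUBB3: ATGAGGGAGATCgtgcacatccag
TUBB4B: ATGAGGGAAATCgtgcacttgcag
TUBB6: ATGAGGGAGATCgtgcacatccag
TUBG1: ATGCCGAGGGAAatcatcacccta
The 4 alpha-tubulin genes encode the same first 4 residues, and so do the 5 beta-tubulin genes, while TUBG1 shares neither start. TUBA1A, TUBA1B and TUBA1C are identical over all 24 bases shown. Across the coding sequence TUBA1A was 97.27% identical to TUBA1B and 96.01% to TUBA1C, against 84.78% to TUBA4A.

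Each library held between 12415519 and 15284762 reads assigned to genes, and no pair of replicates agreed within sampling noise (chi-square per degree of freedom 2.043 to 16.547). The line's markers VIM, CD44 and MSN were high in every library, with lowest normalized counts of 13432.7, 9275.3 and 15269.8. SPARC, chosen as a marker of the line, was nearly absent at 1.1 to 6.2. ESR1 reached at most 4.3, and the leukocyte gene PTPRC 3.5. Of the other genes the line is known to lack, CDH1 (107.1 to 206.3), PECAM1 (200.8 to 321.4) and COL1A1 (165.2 to 224.2) were well above 0. PGR (5.4 to 17.3), ACTA2 (4.3 to 17.5) and LYZ (2.0 to 8.6) were low but above 0 in every library. KRT14 reached at most 1.0, and MYH11 was at 0. The summed level of 6 markers of other cell types was 461.3 to 504.5 in the DMSO libraries and 423.8 to 451.3 at 500 nM. The part of these genes in the results below was not tested. Replicate 2 at 0.5 nM stood apart, with the highest level of 7 of the 9 tested tubulin genes and the widest spread around its group mean over all genes (SD 0.2131 on the log2 scale, against 0.1588 to 0.1937 in the other libraries).

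The tested tubulin mRNAs did not fall together. 1 of the 9 tested genes, TUBA1A, fell at 500 nM, which is near the 10.1% of all genes tested that were called lower. None passed the test at 0.5, 5 or 50 nM, where 1.17%, 2.18% and 6% of all genes were called. The change of TUBA1A against DMSO at 500 nM was -0.34 on the log2 scale, or -21.05%, and the estimates for the other 7 genes with more than a few reads lay between -0.0006 and 0.10. The members are described in turn, alpha-tubulins first.

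TUBA1A encodes an alpha-tubulin that is best known from neurons and lies on the minus strand at chr12:49184686-49189080 (hg38). It has 4 exons in its canonical transcript. Its normalized counts in DMSO were 1881.58, 1854.34 and 1698.34 (1811 ± 98.87, SD, n = 3). They were 1740.94, 1968.30 and 1809.13 at 0.5 nM, and 1800.20, 1567.84 and 1752.24 at 5 nM. These low-dose libraries overlapped those of DMSO. At 50 nM the values were 1438.75, 1811.92 and 1491.23, so that replicates 1 and 3 lay below every DMSO library and replicate 2 among them. At 500 nM they were 1461.50, 1390.65 and 1434.30 (1429 ± 35.74, SD, n = 3), and each lay below each DMSO library.

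The log2 fold change of TUBA1A against DMSO was 0.02 at 0.5 nM, -0.09 at 5 nM, -0.20 at 50 nM and -0.34 at 500 nM. The fall at 500 nM passed the test (limma, SE 0.0753, 95% interval -0.50 to -0.18, adjusted p = 0.00325). At 50 nM it did not (limma, adjusted p = 0.141). Without replicate 2 of that dose the log2 fold change was -0.30 (limma, adjusted p = 0.00802). Over all single libraries left out it ran from -0.3048 to -0.1386. When replicate 1 or replicate 3 of that dose was left out, 0 tubulin genes had an unadjusted p under 0.05 (limma). Among all genes tested, 17.8% were called at 500 nM and 10.1% were called lower, against 1 of the 9 tubulin genes, and TUBA1A ranked 1097 by p. With no filter on low values the adjusted p at 500 nM was 0.0799 (limma), which ends the call.

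The trend over all 15 libraries was tested as the slope of log2 level on the rank of the dose. TUBA1A fell by 0.0906 on the log2 scale per rank (limma, SE 0.0175, adjusted p = 0.000887), again the 1 tubulin gene called, beside 17.6% of all genes tested in either direction and 9.33% lower. No step between neighbouring doses passed the test for any tubulin gene, where the step between 0.5 and 5 nM called 0.118% of all genes, that between 5 and 50 nM 5.01% and that between 50 and 500 nM 2.28%. The estimates for TUBA1A at these steps were -0.11, -0.12 and -0.14.

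**Figure D1:**
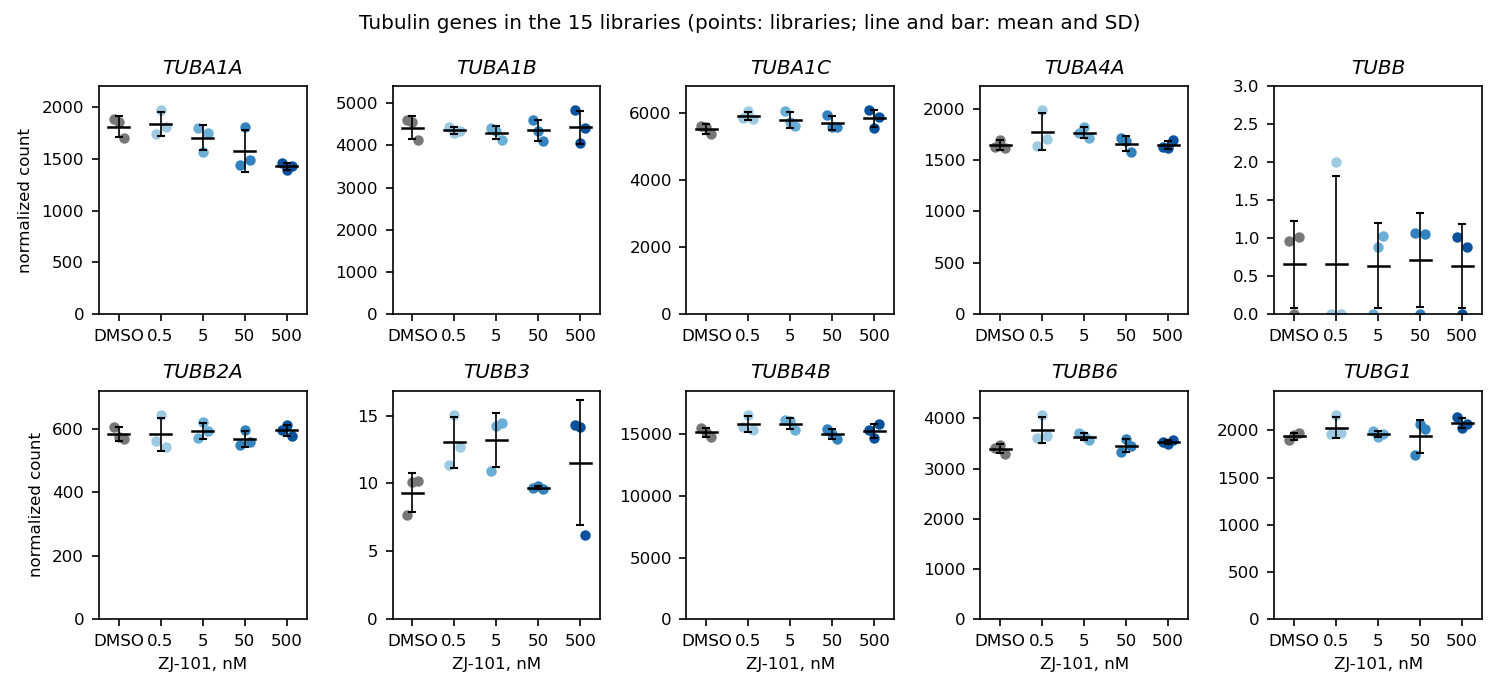
Normalized counts (vertical axes, linear from 0) of the 10 tubulin genes by ZJ-101 dose in nM, with 1 point for each of the 15 libraries and a line and bar for the mean and SD of each group (n = 3). TUBA1A drops to 1429 at 500 nM from 1811 in DMSO, the levels of TUBB stay between 0 and 2.00, and no other panel holds a difference that passed the test.

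TUBA1B, a widely expressed alpha-tubulin gene of the same chr12 cluster (chr12:49127782-49131397, hg38, minus strand), had 4594.39, 4548.34 and 4114.97 normalized counts in DMSO. At 500 nM it had 4823.76, 4049.57 and 4412.43. The highest and the lowest library of the series for this gene were thus both at 500 nM, and the log2 fold change was 0.0011 (95% interval -0.12 to 0.13, limma adjusted p = 0.993).

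TUBA1C, a plus-strand gene that overlaps TUBA1A (chr12:49188736-49274600, hg38), had 5622.63, 5587.30 and 5358.80 in DMSO and 6075.31, 5559.56 and 5885.59 at 500 nM. The groups overlapped, and the log2 fold change was 0.08 (95% interval -0.01 to 0.17, limma adjusted p = 0.253). At 0.5 nM its libraries, from 5829.11 to 6064.08, all lay above DMSO, at an adjusted p of 0.316 in limma.

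TUBA4A, an alpha-tubulin gene on chromosome 2 (chr2:219249710-219277902, hg38, minus strand), had 1623.08, 1700.57 and 1620.22 in DMSO and 1625.59, 1620.23 and 1695.73 at 500 nM. Both sets of values nearly coincided, with a log2 fold change of -0.0006 (95% interval -0.12 to 0.12, limma adjusted p = 0.996).

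The composition of the alpha-tubulin mRNA was described as the share of each gene in their summed level per kilobase of transcript. In DMSO TUBA1A held 16.49% ± 0.21 (SD, n = 3) of the alpha-tubulin signal, at 50 nM 14.65% ± 1.79 and at 500 nM 13.25% ± 0.40. TUBA1B held 41.35% ± 0.72 in DMSO and 42.11% ± 1.42 at 500 nM, and TUBA1C 29.81% ± 0.53 and 32.05% ± 0.33. The sum of the alpha-tubulin signal spanned 6239.9 to 6741.2 in DMSO and 6090.6 to 6790.9 at 500 nM, so that the total at 500 nM enclosed the DMSO range.

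**Figure D2:**
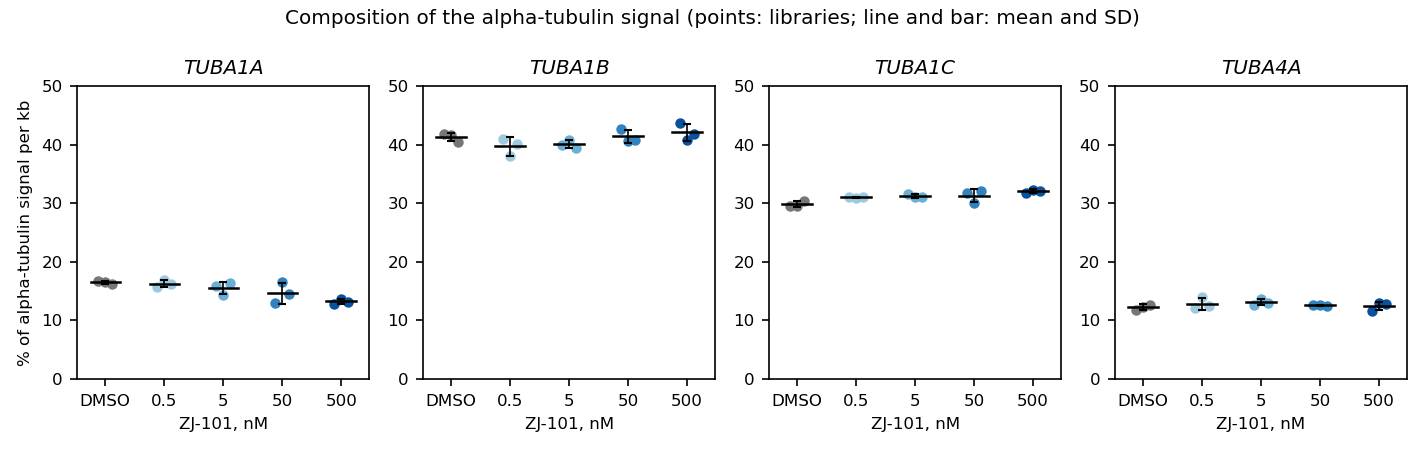
Percent of the summed alpha-tubulin signal per kilobase (vertical axes, from 0) held by TUBA1A, TUBA1B, TUBA1C and TUBA4A at each ZJ-101 dose in nM, with 1 point per library and a line and bar for mean and SD (n = 3). TUBA1A holds 16.49% in DMSO and 13.25% at 500 nM.

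The ratio of TUBA1A to each of the other 8 tested tubulin genes was then taken within each library, where the size factor cancels. It is given as a description with no test, since TUBA1A was singled out after its slope was seen and all 8 ratios share it. At 500 nM the log2 ratio lay below every DMSO library for 7 of the 8 genes, TUBB3, which had few reads, being the exception. The level of TUBA1A alone also did so, as did that of 19.6% of all genes tested. The ratios thus largely restate its own fall, and their share over other genes was not computed. Against TUBA1B, the nearest in sequence, the mean log2 ratio was -1.29 in DMSO and -1.63 at 500 nM.

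Among the beta-tubulins, TUBB4B (chr9:137241287-137243707, hg38, plus strand) had the highest level of the tubulin genes listed, among which the level of TUBB cannot be read. It had 15478.33, 15208.01 and 14802.14 normalized counts in DMSO and 15312.11, 14712.56 and 15863.90 at 500 nM. The groups overlapped, with a log2 fold change of 0.01 (95% interval -0.08 to 0.10, limma adjusted p = 0.895).

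TUBB6, a beta-tubulin gene (chr18:12307669-12344320, hg38, plus strand), had 3412.40, 3473.98 and 3294.21 in DMSO. It had 3608.58, 4063.74 and 3641.72 at 0.5 nM and 3540.62, 3494.32 and 3562.80 at 500 nM, with every library of both doses above DMSO. Neither difference passed the test. The log2 fold change was 0.15 at 0.5 nM (limma, adjusted p = 0.134), the smallest p of any tubulin gene at that dose, and 0.06 at 500 nM (limma, adjusted p = 0.454).

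TUBB2A, a beta-tubulin gene (chr6:3153497-3157544, hg38, minus strand), had 606.37, 574.61 and 567.13 in DMSO and 596.22, 611.89 and 575.84 at 500 nM, which overlapped (log2 fold change 0.03, 95% interval -0.11 to 0.17, limma adjusted p = 0.822). TUBB3, a beta-tubulin best known as a neuronal marker (chr16:89921392-89938761, hg38, plus strand), had 7.69, 10.12 and 10.15 in DMSO and 14.27, 14.16 and 6.18 at 500 nM. At that depth the estimate for TUBB3 was loose, at 0.21 on the log2 scale (95% interval -0.43 to 0.85, limma adjusted p = 0.715). A fall of the size of TUBA1A's lay inside that interval.

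TUBB, usually among the main beta-tubulin genes of dividing cells (chr6:30717435-30725538, hg38, plus strand), was listed at no more than 2.00 normalized counts in any library. Its transcript had 7 further copies at 90% or more of its length and 99% or more identity on the alternate contigs of hg38, and no other member had any. Reads from such a gene map to several places when these contigs are part of the index, and the sources used here do not say whether they were. The processed pseudogene TUBBP1, which shares sequence with TUBB, was listed at 796.67 to 1252.86, with a median of 852.81. The part of multiple mapping in these levels was not tested, and the level of TUBB is not read as its expression.

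TUBG1, the main gamma-tubulin gene (chr17:42609641-42615238, hg38, plus strand), had 1895.99, 1950.45 and 1968.21 normalized counts in DMSO and 2137.21, 2029.84 and 2066.67 at 500 nM. Every 500 nM library lay above DMSO, but the difference of 0.10 on the log2 scale did not pass the test (95% interval -0.02 to 0.22, limma adjusted p = 0.262).

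Setting TUBA1A and TUBB3 aside, the 95% intervals of the other 7 tested genes at 500 nM lay within -0.12 and 0.22 on the log2 scale, or -8.3% and 16.5%. A change of the size of TUBA1A's was thus outside the interval of each. The counts of members called at the lower doses were 0 of 9 at 0.5 nM, where 1.17% of all genes were called, 0 of 9 at 5 nM beside 2.18%, and 0 of 9 at 50 nM beside 6%, all by limma. At an unadjusted p under 0.05 in limma there were 2 at 0.5 nM, 1 at 5 nM and 1 at 50 nM. By that rule 1997, 1749 and 2362 of the 13561 genes tested passed at these doses. With edgeR and DESeq2, 0 members were called at these doses. These 4 comparisons share the DMSO libraries.

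Libraries that did not overlap DMSO were seen for 3 of the 9 genes at 0.5 nM, all higher (TUBA1C, TUBB3 and TUBB6), where 7.43% of all genes were higher without overlap. They were seen for 3 at 5 nM, all higher (TUBA4A, TUBB3 and TUBB6), beside 10.5%, and for none at 50 nM, beside 24.8% in either direction. At 500 nM, TUBB6 and TUBG1 were higher, beside 18.9% of all genes, and TUBA1A lower, beside 19.6%.

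**Figure D3:**
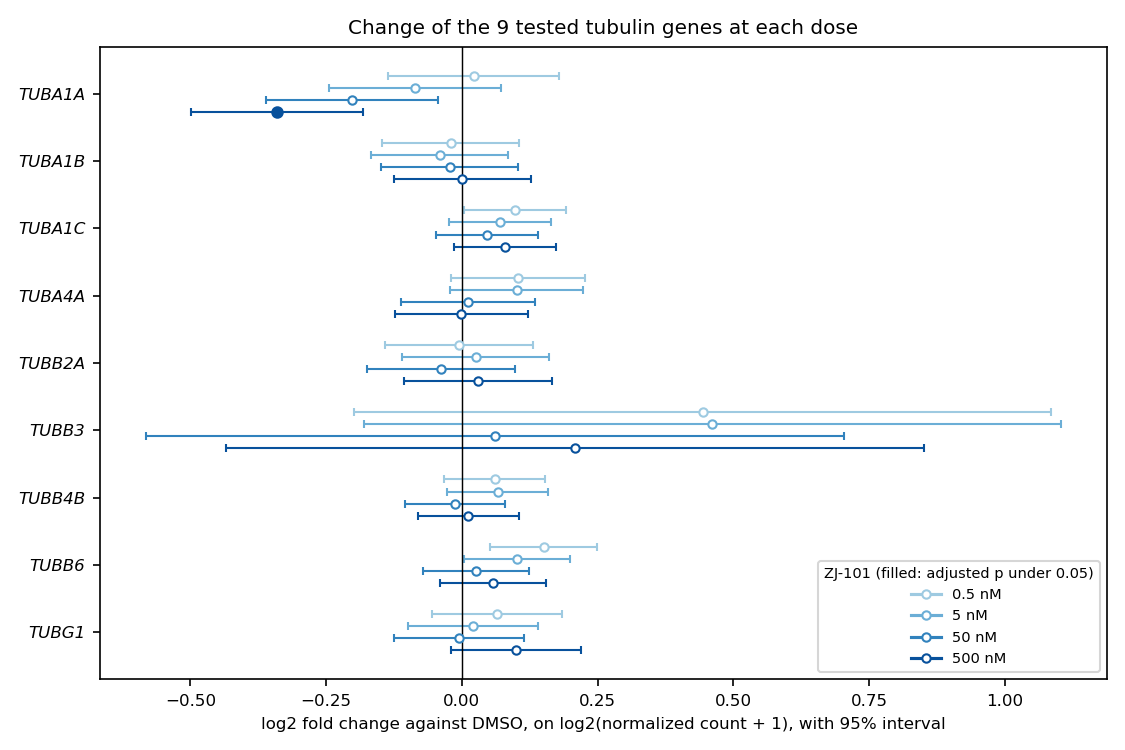
Log2 fold change against DMSO (horizontal axis) of the 9 tested tubulin genes at 4 doses of ZJ-101, with 95% intervals from limma and filled points for an adjusted p under 0.05. The 1 filled point is TUBA1A at 500 nM, at -0.34, and the wide intervals belong to TUBB3.

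Per kilobase of transcript, the order of the levels in DMSO was TUBB4B (9701 ± 217.8, SD, n = 3), TUBA1B (2716 ± 162.6), TUBA1C (1956 ± 50.73), TUBB6 (1806 ± 48.62), TUBG1 (1205 ± 23.40), TUBA1A (1083 ± 59.13), TUBA4A (804.3 ± 22.25), TUBB2A (360.6 ± 12.89) and TUBB3 (5.461 ± 0.827). Each of these neighbours stood apart in all 3 libraries. The same order held at 500 nM, where TUBA1A, at 854.6 ± 21.38, had come within reach of TUBA4A, at 803.9 ± 20.56, with libraries still apart. The other gamma-tubulin gene TUBG2 (115.3 ± 9.943 in DMSO), and the centriolar tubulins TUBE1 (88.29 ± 2.557) and TUBD1 (82.24 ± 8.760), followed TUBB2A, and the latter pair overlapped. TUBB2B was at 10.40 ± 2.077. Of the 12 further tubulin genes, these 4 were abundant enough to test, and 0 passed the test at 500 nM (limma, edgeR and DESeq2). At an unadjusted p under 0.05 in limma there were 0 as well, beside 3980 of the 13561 genes tested.

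Several members share sequence, which bears on how reads were assigned. Of all 150-base windows of the transcript, the share also found in another gene's transcripts was 8.01% for TUBA1A, 64.21% for TUBA1B, 25.5% for TUBA1C, 25.21% for TUBA4A, 48.67% for TUBB2A, 92.29% for TUBB3 and 6.24% for TUBG1, and it was 0 for TUBB4B and TUBB6. For TUBB, which was not tested, it was 19.15%. TUBB3 shares its windows mainly with an overlapping readthrough gene, and TUBA1B with its antisense neighbour. On the opposite strand, 10.8% of the exon bases of TUBA1A, 43.96% of TUBA1B and 22.7% of TUBA1C lay in another gene. That share was 21.24% for TUBB6, 20.01% for TUBA4A and 13.53% for TUBB, and 6.09% or less for the remaining members. The strand setting of the counting is not given in the sources used here. The levels of TUBB3, TUBA1B and TUBB2A are therefore uncertain, while most 150-base windows of TUBA1A occur in no other gene's transcripts. Looser matches were more frequent. At 50% or more of its length and 95% or more identity, TUBA1A had 3 further matches on the primary chromosomes.

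The promoter of TUBA1A is shown because it is the member that was called. These are the 250 bases before its start (RefSeq, GRCh38.p14, chr12:49189081-49189330, minus strand, 5′ to 3′), with the motif CCAAT, on either strand, in capitals.
TUBA1A promoter: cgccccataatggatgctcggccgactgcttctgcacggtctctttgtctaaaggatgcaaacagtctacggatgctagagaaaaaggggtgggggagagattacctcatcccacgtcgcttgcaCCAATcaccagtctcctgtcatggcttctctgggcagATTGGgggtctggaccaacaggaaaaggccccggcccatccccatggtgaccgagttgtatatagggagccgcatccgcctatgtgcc
It held 2 matches of CCAAT, which stood in 32.01% of 35116 promoter windows of this length, and TUBB4B, which did not pass the test, held 3. It had 0 matches of the heat shock element core GAANNTTC (5.78% of windows), of the GC box GGGCGG (42.64%) or of TATAAA (10.72%). GAANNTTC was found among the members in TUBA1C alone, in 2 of its 3 windows, which overlap each other.

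Genes that act on tubulin were counted next, from lists chosen with results of these data known. Their counts stand beside 7.69% of all genes tested that rose at 500 nM and 10.1% that fell. Of 13 genes of the tubulin mRNA decay pathway, 0 rose and 2 fell at 500 nM (median log2 fold change 0.04, against 0.0027 over all genes tested), where DESeq2 called 1 fall, and such a count is near the share over all genes. CNOT8, a deadenylase subunit of CCR4-NOT, had 1149.3, 1131.0 and 1174.8 in DMSO and 953.9, 924.4 and 1006.0 at 500 nM, which did not overlap, and fell by 0.26 on the log2 scale. CNOT11, another subunit of that complex, fell by 0.14. TTC5, the factor that reads the nascent tubulin chain, had 321.9, 315.6 and 293.2 in DMSO and 323.1, 340.8 and 342.7 at 500 nM, a difference of 0.11 that did not pass the test (limma, SE 0.0662, adjusted p = 0.278).

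Of 20 tested genes of tubulin folding, 7 rose and 0 fell at 500 nM (median 0.09), beside 7.69% of all genes that rose. All 7 encode subunits of TRiC/CCT, the ring-shaped chaperonin that folds actin and tubulin. The largest rise was that of TCP1, from 4928.8, 4777.0 and 4868.8 in DMSO to 6717.4, 6449.6 and 6728.2 (log2 fold change 0.45, limma adjusted p = 5.71e-06). CCT6A rose from 5423.7, 5394.1 and 5418.7 to 6930.4, 6802.6 and 6677.8 (0.33, limma adjusted p = 9.79e-06), without overlap. The remaining ones, named after their values were seen, were CCT2, CCT3, CCT4, CCT5 and CCT7, and CCT8 had an adjusted p of 0.0963 in limma. The tubulin-specific cofactors TBCA to TBCE, which assemble the dimer, were not among the genes called. Neither were the tested prefoldin subunits, which deliver unfolded chains to the chaperonin.

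In the list of the gamma-tubulin ring complex and its recruiters, 1 of 20 tested genes rose and 0 fell (median -0.0052), no more than the share over all genes. It was TUBGCP6, a subunit of the ring, with 364.2, 366.2 and 407.8 in DMSO and 426.0, 537.0 and 452.2 at 500 nM. Among 15 enzymes that modify tubulin, TTLL4, a polyglutamylase, rose from 418.0, 420.8 and 426.1 to 514.7, 505.7 and 493.7, and 0 fell (median -0.02). Among 28 microtubule-associated and destabilizing proteins, 2 rose and 1 fell (median 0.03), and both this count and that of the modifying enzymes lie below the 17.8% of all genes called in either direction. MAPRE2, which binds microtubule plus ends, rose by 0.21 and MAP7D3 by 0.16, while MAP7D1 fell by 0.14, the latter pair being relatives of the microtubule-binding protein MAP7.

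Actin and intermediate filament genes gave a cytoskeletal comparison. Of 15 tested, 1 rose and 2 fell (median -0.03), close to the share of all genes called. The keratin gene KRT80 rose by 0.17, and the keratin gene KRT19 and the lamin gene LMNA fell by 0.17 and 0.15. ACTB and ACTG1, the cytoplasmic actins, were at -0.06 each (limma, adjusted p = 0.485 and 0.465). The rises in the folding list numbered between 6 and 8 when any library was left out, 8 of them without replicate 2 at 0.5 nM. The calls in the other lists depended on single libraries and on the method. DESeq2 and the replicate block each left 1 rise in the microtubule-associated list. The gamma-tubulin list had 2 rises and 1 fall without 0.5 nM replicate 2 and also with the compared libraries alone, where the microtubule-associated list had 3 rises and 2 falls. The decay list kept 1 fall without any DMSO or 500 nM library or without 5 nM replicate 2, and it had 1 rise and 2 falls without 0.5 nM replicate 2. The call of TTLL4 was lost without any DMSO library or without 500 nM replicate 1 or 2, and that of TUBGCP6 without DMSO replicate 1 or 2 or 500 nM replicate 2. The microtubule-associated list had 0 calls without DMSO replicate 1 or 500 nM replicate 2 or 3, and 1 without DMSO replicate 2 or 3 or 500 nM replicate 1. The actin and intermediate filament list had 0 falls without any DMSO or 500 nM library. With no filter on low values, 6 folding genes rose, the gamma-tubulin, modifying and microtubule-associated lists had 0 calls, and the actin and intermediate filament list had 1 rise and 0 falls.

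**Figure D4:**
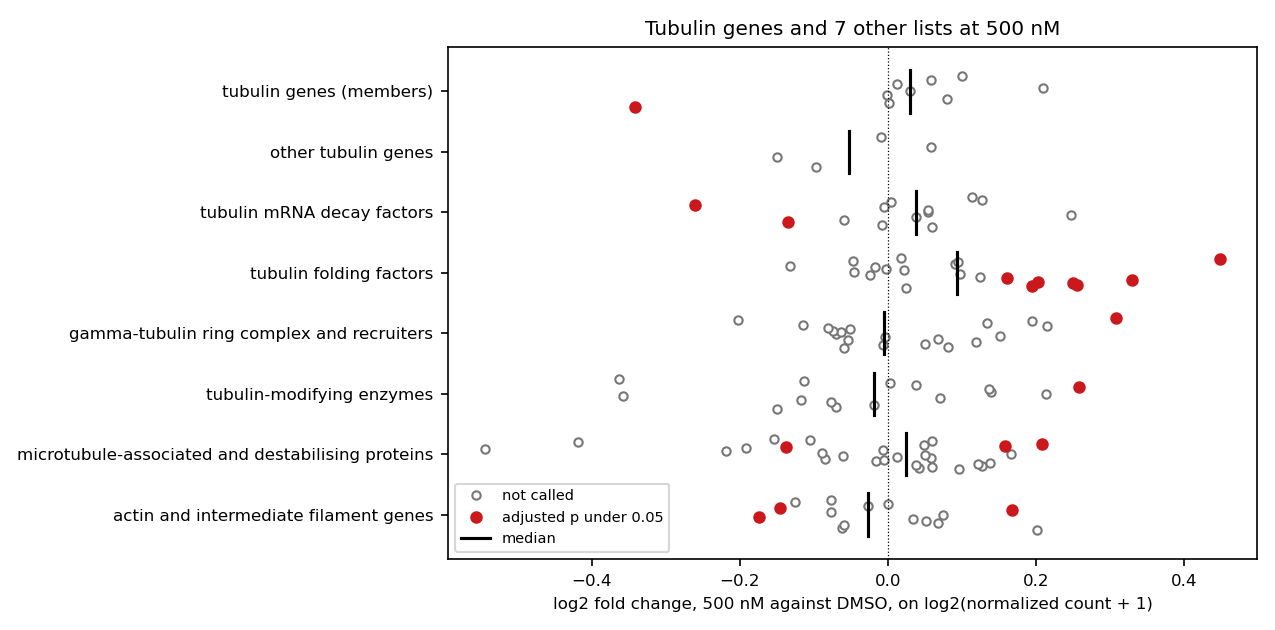
Log2 fold change at 500 nM against DMSO (horizontal axis) of each tested gene in the tubulin set and in 7 other lists, with filled red points for an adjusted p under 0.05 and a bar for the median of the list. The members have 1 called gene, TUBA1A at -0.34, and the folding list has 7 called genes, all on the side of higher levels.

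By Pearson correlation of log2 level over the 15 libraries, the genes outside the tubulin family most like TUBA1A were DNTTIP1, a histone deacetylase complex subunit (r = 0.945), GNAI2, an inhibitory G protein subunit (r = 0.943), and MYDGF, a protein of the secretory pathway (r = 0.94). The points share their libraries and the dose. At 500 nM the log2 fold changes of DNTTIP1, GNAI2 and MYDGF were -0.23, -0.14 and -0.26, and all 3 passed the test. They were picked by likeness to TUBA1A over these same libraries, so their falls are not independent of its fall. Of all genes tested, 17.8% were called at that dose. The genes most like TUBB4B, the beta-tubulin with the smallest p of the slope, were POLE3 (r = 0.908), APRT (r = 0.89) and ATP5MC3 (r = 0.865), and none of these passed the test at 500 nM.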

How the data were processed

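MDA-MB-231 RNA was poly-A selected and sequenced from 15 dishes. The authors used HISAT2 for alignment to hg38 and HTSeq for counting, and deposited a signal table of counts divided by DESeq2 size factors. 1 line with doses and no gene was dropped. All values in the 15 columns were then whole multiples of a library's smallest step (tolerance 0.001), which gave whole reads for the alternatives. The automatic unit check accepted this for all but 2 columns, in which it read the dose line as a value.

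limma 3.58.1 (R 4.3.3) was fitted with a mean-variance trend to log2(normalized count + 1) of 13561 genes (mean of 10 or more), with all 15 libraries in 1 fit. p-values were adjusted by Benjamini-Hochberg over these genes, and the threshold was 0.05. Fold changes on this scale understate changes of low genes. edgeR 4.0.16 and DESeq2 1.42.0 on recovered reads, other pseudocounts, filters and scalings, a replicate block and leaving out each library were alternatives. The test was run on simulated data, where it missed mainly genes with few reads; the recovery demanded there was lowered after the first run fell short of it.

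Named were all members, up to 2 rises and 2 falls of each other list at 500 nM with the smallest p, TTC5, and the 3 genes most correlated with the alpha- and the beta-tubulin of smallest slope p. Members and lists were chosen with earlier results of these data known. Copies were found with minimap2 2.31-r1302, and coding identity was computed by global alignment with edlib, from GENCODE 44 and hg38. Biopython 1.88 was used for translation and reverse complements.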

Additional observations from a re-analysis of the deposited data

How the results depend on the processing

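The count of tubulin genes called at 50 nM was 0, and 1 (TUBA1A) without 50 nM replicate 2, the range over single libraries left out being 0 to 1. At 500 nM it was 1, and 0 with no filter on low values. There the variance trend of the fit and the adjustment both took in more genes. Over its alternatives the log2 fold change of TUBA1A at 500 nM ran from -0.39 to -0.31 and its adjusted p from 6.2e-05 to 0.0799. The dose slope of TUBA1A kept its call under all 26 alternatives. Of the values of single members under the alternatives, 1106 kept their direction and side of the threshold and 57 changed sign, each within a difference that passed no test under either setting. With edgeR these were TUBB2A at 0.5 nM (0.0061), TUBG1 at 50 nM (0.0012) and the slope of TUBA1B (0), and with DESeq2 TUBG1 at 50 nM (1e-04) and TUBA4A at 500 nM (0.0014). With TMM scaling they were TUBA4A at 500 nM (9e-04) and the slope of TUBA1B (-1e-04), with the same total per library TUBA4A at 500 nM (0.0025) and the slope of TUBB6 (6e-04), and with the compared libraries alone the slopes of TUBA1C (-0.008) and TUBB3 (-0.1104). The others changed sign when a library was left out, over which TUBA1A at 0.5 nM ran from -0.0281 to 0.0604, TUBA1B from -0.0709 to 0.0086 and TUBB2A from -0.0777 to 0.0433, and TUBB2A at 5 nM from -0.0059 to 0.0552. At 50 nM TUBA1B ran from -0.073 to 0.0188, TUBA4A from -0.0103 to 0.0457, TUBB3 from -0.0585 to 0.1212, TUBB4B from -0.0328 to 0.0074, TUBB6 from -0.0017 to 0.052 and TUBG1 from -0.054 to 0.0722. At 500 nM TUBA1B ran from -0.0623 to 0.0638, TUBA4A from -0.0217 to 0.0222 and TUBB4B from -0.0144 to 0.0399. The slopes ran from -0.012 to 0.009 for TUBA1B, -0.0027 to 0.0077 for TUBB2A, -0.0353 to 0.0664 for TUBB3, -0.0107 to 0 for TUBB4B and -0.0101 to 0.0063 for TUBB6. Same-numbered replicates of different groups did not deviate together (r -0.085 to 0.096 over 30 pairs, 7 of 15 libraries closest to their own number). No pairing by number was thus detected, which does not show that the dishes were handled separately. With the replicate block the member count at 500 nM was 1, no call of a tubulin gene changed, and the rises in the microtubule-associated list went from 2 to 1. TUBB3 and TUBB had too few reads to show a change of the size seen in TUBA1A.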
